A study of Homo sapiens with 6 samples.

Results

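ATP-dependent chromatin remodellers are enzymes that use ATP to slide, evict or exchange nucleosomes, the histone spools that package DNA. The genes described here are 45 catalytic and other subunits of these machines, picked by symbol from 31368 genes in an RNA-seq table of CAL27 cells, an established line from a human squamous carcinoma of the tongue. The genes are defined by symbol, in a list drawn up with earlier results of these data known, and all 45 were found: 21 of the SWI/SNF family, 9 of the ISWI family, 8 of the CHD family, 3 of the INO80 family and 4 other SNF2-like ATPases. Libraries of poly-A RNA came from 3 samples of cells labelled as untreated and from 3 samples of the same line given 10 mM lactate over 24 h. Every sample is the one cell line, with no genetic change named, and the labels leave unsaid whether the 3 samples of a group were grown separately. The p-values below therefore cover the spread among these samples, which may be technical. Neither the form of the lactate nor the control medium nor any sequencing batch is named in the labels.

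All remodellers share a motor related to yeast Snf2 that pulls DNA around the histone core, and differ in the subunits built around it. SWI/SNF complexes (BAF, PBAF and the non-canonical ncBAF in mammals) slide and eject nucleosomes and open enhancers and promoters, and many of their subunits are tumour suppressors. ISWI complexes space nucleosomes evenly, and their motor SNF2H or SNF2L pairs with a large partner such as BAZ1A or RSF1. CHD proteins carry paired chromodomains beside the motor, and CHD3 and CHD4 form the NuRD complex together with histone deacetylases. The INO80 family exchanges histone variants, H2A.Z among them, at promoters and at sites of DNA damage.

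The scaling denominators inferred from the values ran from 25163374 to 33297625 reads in untreated and from 30957477 to 40220226 reads in lactate libraries. Summed FPKM over all genes was 432328 to 442352 untreated and 398439 to 409127 with lactate. Mitochondrial transcripts took 22.2% to 23.8% of the summed values in untreated and 22.9% to 24.9% in lactate libraries. Of 9 squamous epithelial markers, all 9 reached 1 FPKM (fragments per kilobase of gene, scaled to library size), with summed levels of 1051 to 1068 FPKM untreated and 1059 to 1081 FPKM with lactate. Single squamous markers did move, 6 up and 2 down, with KRT5 from 155 ± 1.68 to 118 ± 2.22 FPKM and KRT17 from 108 ± 1.76 to 136 ± 3.52 FPKM. No fibroblast marker and no leukocyte marker reached 1 FPKM in 3 or more libraries, and of the 4 endothelial markers CDH5 did. The summed fibroblast markers were at 1.04 to 1.19 FPKM untreated and at 1.59 to 1.79 FPKM with lactate, and the part of such cells in the results was not tested. A library of a whole culture cannot tell apart fewer cells that make a transcript and less of that transcript per cell.

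Lactate-treated cells held more transcript of both ISWI motors than untreated cells, with SMARCA1 at 2.02 times and SMARCA5 at 1.53 times its untreated level. Of the 45 genes, 38 reached 1 FPKM in at least 3 libraries and were tested. With limma on log2(FPKM + 1) and Benjamini-Hochberg adjustment over all 11792 genes tested (adjusted p under 0.05), 16 of the 38 rose, 8 fell and 14 did not pass. Without SMARCA1, 15 of 37 rose and 8 fell. The comparison as a whole was broad, since 27.7% of all genes tested rose, 30.9% fell and 58.6% moved in one direction or the other. The median log2 fold change of the 38 was 0.081 and that of all genes tested was -0.016. Among the catalytic subunits 9 of 17 rose and 1 fell, while among the other subunits and partners 7 of 21 rose and 7 fell. The values of the 3 lactate libraries did not overlap those of the 3 untreated libraries for 30 of the 38 genes, and the same held for 65.5% of all genes tested.

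The scaling denominators inferred from the values were not the sums of the recovered reads, and the split of calls moved with that choice. Scaled to read totals instead, 35.6% of all genes rose and 21.5% fell, and the remodeller genes gave 20 that rose and 5 that fell. Fold changes across the transcriptome also followed GC content and gene length. With that trend removed from each library, 23.3% of all genes rose and 26.1% fell, and the 38 remodeller genes gave 9 that rose, 7 that fell and 22 that did not pass, with a median of -0.012. SMARCC1, BRD7, SMARCA1, SMARCA5, BAZ1B, CHD6, CHD8 and INO80 rose in both fits. SMARCB1, SMARCD2, DPF2, BRD9 and BCL7B fell in both.

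**Figure D1:**
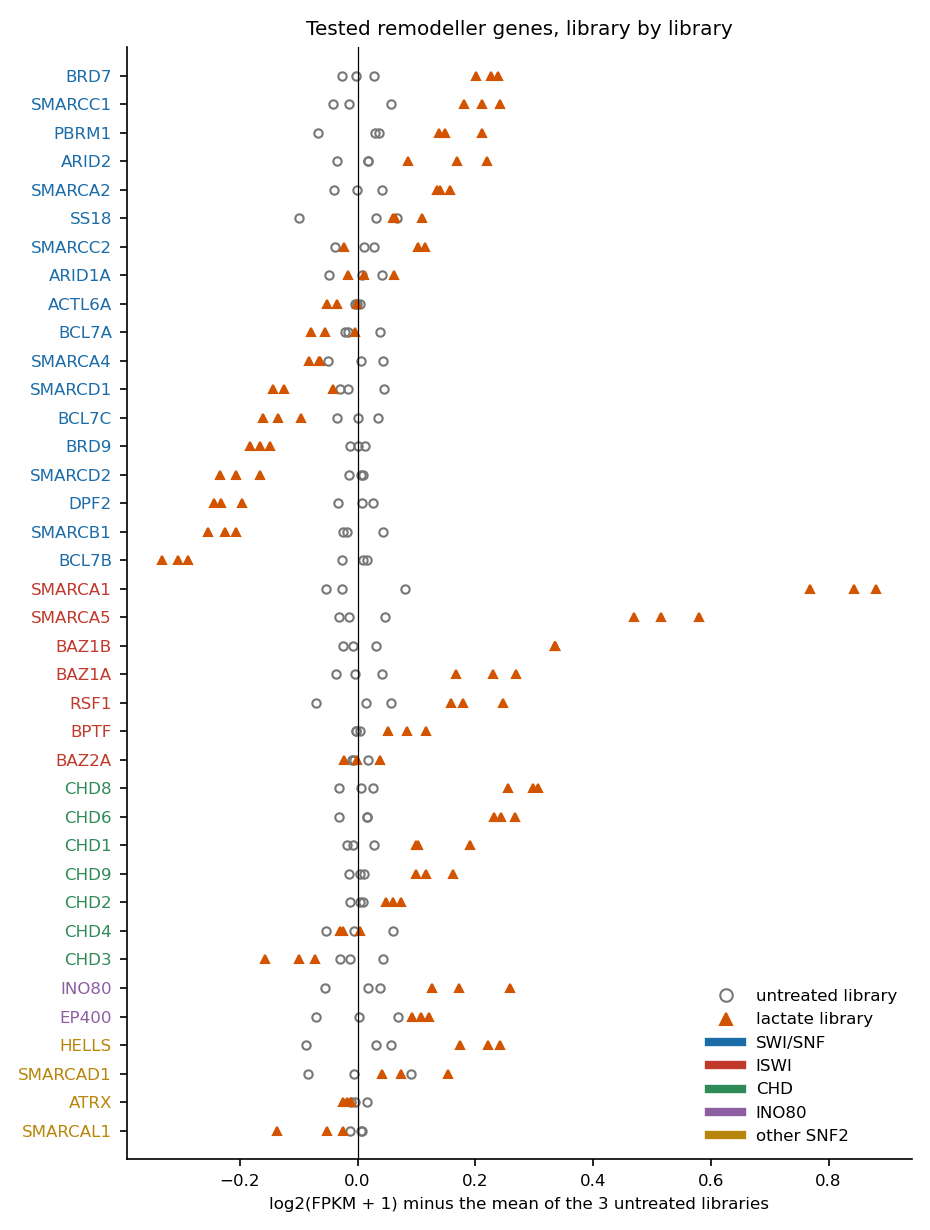
Each row is 1 of the 38 tested remodeller genes, and each point is 1 library, placed at its log2(FPKM + 1) minus the mean of the 3 untreated libraries (open circles untreated, filled triangles lactate; gene names coloured by family). SMARCA1 and SMARCA5 lie farthest to the right, and BCL7B lies farthest to the left.

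In the ISWI family no tested gene fell: 5 of 7 rose and 2 did not pass, with a median log2 fold change of 0.22. Of all genes tested, 27.7% rose and 30.9% fell. The ISWI count of 5 was the same when any 1 library was left out, in fits where 23.8% to 25.7% of all genes rose. After the GC and length trend was taken out 3 of the 7 rose, SMARCA1, SMARCA5 and BAZ1B, and the median was 0.066. In that fit 23.3% of all genes rose.

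SMARCA1 encodes SNF2L, the ISWI motor of the human NURF complex, and lies at chrX:129446501-129523500 on the minus strand (GRCh38, GENCODE 29). Its levels were 3.18, 3.10 and 3.50 FPKM in the untreated libraries and 6.84, 6.25 and 6.64 FPKM in the lactate libraries. The groups did not overlap: the lowest lactate library stood well above the highest untreated one. The mean went from 3.26 ± 0.210 to 6.58 ± 0.300 FPKM (SD, n = 3 each), and the log2 fold change was 0.83 (SE 0.048, 95% interval 0.72 to 0.94, limma adjusted p = 1.99e-05). The gene ranked 13 of 11792 by log2 fold change, and 340 to 1165 recovered reads lay behind each value. SMARCA1 was chosen with its change known, so its rank and p-value are a description. After the GC and length trend was taken out, the log2 fold change was 0.70 (limma adjusted p = 6.43e-06).

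SMARCA5 encodes SNF2H, the ISWI motor of the ACF, CHRAC, WICH, NoRC and RSF complexes, and lies at chr4:143513463-143557486 on the plus strand. Its levels were 4.86, 4.62 and 4.55 FPKM untreated and 7.48, 7.11 and 6.86 FPKM with lactate. Every lactate library was above every untreated one. The log2 fold change was 0.52 (SE 0.040, 95% interval 0.43 to 0.61, limma adjusted p = 5.09e-05), and it was 0.34 (limma adjusted p = 9.34e-05) with the trend removed. The summed level of both ISWI motors went from 7.93 ± 0.189 to 13.7 ± 0.518 FPKM (SD, n = 3 each), a ratio of 1.73. The summed level of both SWI/SNF motors, SMARCA2 and SMARCA4, went from 6.88 ± 0.252 to 6.80 ± 0.0224 FPKM, a ratio of 0.989.

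The partners of these motors give each complex its site and task. BAZ1B, also called WSTF, joins SNF2H in the WICH complex and is a histone kinase. Its levels were 9.86, 9.57 and 9.44 FPKM untreated and 12.4, 12.4 and 12.4 FPKM with lactate. The lactate libraries were nearly equal and all above the untreated ones, with a log2 fold change of 0.34 (SE 0.027, limma adjusted p = 5.97e-05). Removing the trend left the BAZ1B fold change at 0.34. BAZ1A, or ACF1, the partner of SNF2H in ACF and CHRAC, rose from 6.89 ± 0.211 to 8.2 ± 0.327 FPKM (log2 fold change 0.22). RSF1, the histone-binding partner in the RSF complex, rose from 2.84 ± 0.170 to 3.39 ± 0.140 FPKM (log2 fold change 0.19). Neither passed with the trend removed, at 0.066 for BAZ1A and -0.014 for RSF1. Of the BAZ1A exonic bases, 12.4% overlap AL121603.2 on the opposite strand. BPTF, the largest subunit of NURF and a reader of methylated histone H3, stood at 1.1 ± 0.00716 and 1.23 ± 0.0540 FPKM (limma adjusted p = 0.159). BAZ2A, or TIP5, which directs NoRC to silent ribosomal genes, stood at 7.94 ± 0.0946 and 7.97 ± 0.192 FPKM (limma adjusted p = 0.906).

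The upstream sequences of SMARCA1 and BAZ1B are shown because these were the ISWI motor and the ISWI partner with the highest fold changes. Each is the 250 bases before the transcription start in RefSeq (GRCh38.p14), written in the direction of transcription. Capitals mark the motifs searched on both strands that are present: TGACG (part of the cyclic AMP response element), CCAAT and GGGCGG (a GC box), or their reverse complements. The SMARCA1 window is chrX:129523491-129523740 on the minus strand, and the BAZ1B window is chr7:73522294-73522543 on the minus strand.
SMARCA1: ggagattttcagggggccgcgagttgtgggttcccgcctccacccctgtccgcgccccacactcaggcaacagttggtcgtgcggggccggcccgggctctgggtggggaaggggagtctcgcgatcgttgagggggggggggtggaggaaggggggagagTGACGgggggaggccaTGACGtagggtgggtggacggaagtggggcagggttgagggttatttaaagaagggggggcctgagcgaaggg
BAZ1B: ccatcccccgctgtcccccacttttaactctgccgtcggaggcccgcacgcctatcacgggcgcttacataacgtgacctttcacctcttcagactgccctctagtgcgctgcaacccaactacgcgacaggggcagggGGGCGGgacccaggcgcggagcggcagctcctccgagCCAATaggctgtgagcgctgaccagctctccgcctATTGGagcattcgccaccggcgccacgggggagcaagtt
SMARCA1 has 2 copies of TGACG, and BAZ1B has CCAAT in each orientation and 1 GC box. Of the 36 remodeller genes with a RefSeq promoter entry, 10 held TGACG (27.8%), 10 held CCAAT (27.8%) and 24 held GGGCGG (66.7%) in these 250 bases. Among 8316 tested genes with an entry the shares were 31.3%, 36.0% and 69.8%. The sets differ, since the 36 include remodeller genes that were not tested, such as ARID1B and SRCAP. The E-box CACGTG was in 3 of the 36 (8.33% against 9.28%), the ETS core CCGGAA in 8 (22.2% against 27.6%) and TATAAA in none (5.03% of tested genes). Median GC content was 65.8% in the remodeller windows and 65.2% in those of tested genes. A match is a description of letters and not of binding.

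In the SWI/SNF family the main motor SMARCA4 did not pass on the deposited values, and subunits went in both directions. Of 18 tested genes 5 rose, 7 fell and 6 did not pass, with a median log2 fold change of -0.037. The share that rose, 27.8%, was that of all genes tested (27.7%), and 38.9% fell against 30.9% of all genes tested. The 5 that rose were BRD7, SMARCC1, PBRM1, ARID2 and SMARCA2. The 7 that fell were BCL7B, SMARCB1, DPF2, SMARCD2, BRD9, BCL7C and SMARCD1. The count that rose was 2 without untreated replicate 2, without lactate replicate 1 or without lactate replicate 3. It was 3 without untreated replicate 3, and 4 without untreated replicate 1 or lactate replicate 2. These fits have fewer libraries, and 23.8% to 25.7% of all genes rose in them. Of the 18 genes, 2 rose and 6 fell with the trend removed (11.1% and 33.3%, against 23.3% and 26.1% of all genes).

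SMARCA4, or BRG1, was the more abundant of the alternative SWI/SNF motors. Its levels were 5.57, 5.74 and 5.32 FPKM untreated and 5.18, 5.26 and 5.25 FPKM with lactate. The lactate libraries were all slightly lower, and the gene did not pass (log2 fold change -0.071, 95% interval -0.15 to 0.0094, limma adjusted p = 0.113). After quantile normalization it passed as lower (-0.095, limma adjusted p = 0.0496). SMARCA2, or BRM, was at 1.40, 1.33 and 1.27 FPKM untreated and at 1.60, 1.56 and 1.57 FPKM with lactate. The groups did not overlap, and the log2 fold change was 0.14 (SE 0.044, limma adjusted p = 0.0269). The call was lost when any library other than untreated replicate 1 was left out, and with the trend removed the value was -0.016.

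Subunits that define the PBAF complex were among those that rose. BRD7, a bromodomain protein of PBAF, rose from 8.19 ± 0.174 to 9.72 ± 0.144 FPKM (log2 fold change 0.22, limma adjusted p = 0.000482). It kept its call with the trend removed, at 0.098. PBRM1, the polybromo subunit, went from 1.41 ± 0.0985 to 1.7 ± 0.0723 FPKM, and ARID2, the DNA-binding subunit, from 1.22 ± 0.0450 to 1.48 ± 0.118 FPKM. Their log2 fold changes were 0.17 and 0.16, and with the trend removed they were -0.011 and -0.024. The PBRM1 call was lost without untreated replicate 2, without lactate replicate 1 and without lactate replicate 3. ARID2 lost its call when any library other than lactate replicate 2 was left out. In GENCODE 29, 42.3% of the BRD7 exonic bases lie across from exons of ADCY7 on the opposite strand, and whether counting used strand is not stated.

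ARID1A, the DNA-binding subunit of canonical BAF and a common tumour suppressor, stood at 2.63 ± 0.117 FPKM untreated and 2.68 ± 0.101 FPKM with lactate (limma adjusted p = 0.745). The BAF subunit DPF2, which reads modified histone H3, fell from 13.3 ± 0.275 to 11.3 ± 0.218 FPKM (log2 fold change -0.22, limma adjusted p = 0.000434). BRD9, the bromodomain subunit of ncBAF, fell from 7.0 ± 0.0714 to 6.13 ± 0.0880 FPKM (log2 fold change -0.17, limma adjusted p = 0.00172). Both kept their calls with the trend removed, at -0.19 and -0.12. SS18, a BAF subunit fused to SSX genes in synovial sarcoma, stood at 7.34 ± 0.499 and 7.79 ± 0.169 FPKM (limma adjusted p = 0.189).

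The core shared by several SWI/SNF complexes moved unevenly. SMARCC1, or BAF155, a scaffold, rose from 7.13 ± 0.290 to 8.41 ± 0.199 FPKM (log2 fold change 0.21, limma adjusted p = 0.00179), while its paralog SMARCC2 stood at 5.22 ± 0.147 and 5.51 ± 0.339 FPKM (limma adjusted p = 0.248). SMARCB1, or SNF5, which contacts the nucleosome's acidic patch and is lost in rhabdoid tumours, fell from 5.89 ± 0.174 to 4.87 ± 0.0997 FPKM (log2 fold change -0.23, limma adjusted p = 0.000842). SMARCD2, the most abundant of the BAF60 paralogs here, fell from 35.5 ± 0.311 to 30.7 ± 0.750 FPKM (log2 fold change -0.20, limma adjusted p = 0.000363). SMARCD1 fell from 10.6 ± 0.336 to 9.75 ± 0.423 FPKM, with a limma adjusted p of 0.0457 that did not hold when any library other than lactate replicate 3 was left out. With the trend removed the values were 0.18 for SMARCC1, -0.21 for SMARCB1, -0.090 for SMARCD2 and -0.013 for SMARCD1, of which the last did not pass. In GENCODE 29, 17.7% of the SMARCB1 exonic bases overlap DERL3 on the opposite strand.

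Of the accessory subunits, BCL7B had the lowest log2 fold change of all 38 genes on the deposited values; with the trend removed ATRX (-0.23) and SMARCB1 (-0.21) were lower. BCL7 proteins are small subunits that accompany the motor. BCL7B levels were 19.4, 18.9 and 19.5 FPKM untreated and 15.4, 15.6 and 15.1 FPKM with lactate. The groups lay far apart relative to their spread, with a log2 fold change of -0.31 (SE 0.025, 95% interval -0.37 to -0.25, limma adjusted p = 6.68e-05), and -0.19 with the trend removed. BCL7C fell from 11.3 ± 0.328 to 10.2 ± 0.260 FPKM (log2 fold change -0.13, limma adjusted p = 0.0107), and did not pass with the trend removed. BCL7A stood at 1.62 ± 0.0620 and 1.54 ± 0.0672 FPKM (limma adjusted p = 0.408). ACTL6A, or BAF53A, an actin-related subunit shared with INO80 family complexes, was the most abundant of the 45 at 51.4 ± 0.184 and 50.4 ± 0.943 FPKM. It did not pass (limma adjusted p = 0.264), its log2 fold change was -0.029, and the sign depended on the scaling: 0.094 after quantile normalization and -0.10 with the trend removed.

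BCL7B and BAZ1B are neighbours on chromosome 7. Both are transcribed from the minus strand with 14.1 kb between them, BAZ1B at chr7:73440398-73522278 and BCL7B at chr7:73536356-73558002. Their transcripts moved in opposite directions, 0.34 for BAZ1B and -0.31 for BCL7B on the log2 scale. Both calls held with each single library left out.

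**Figure D2:**
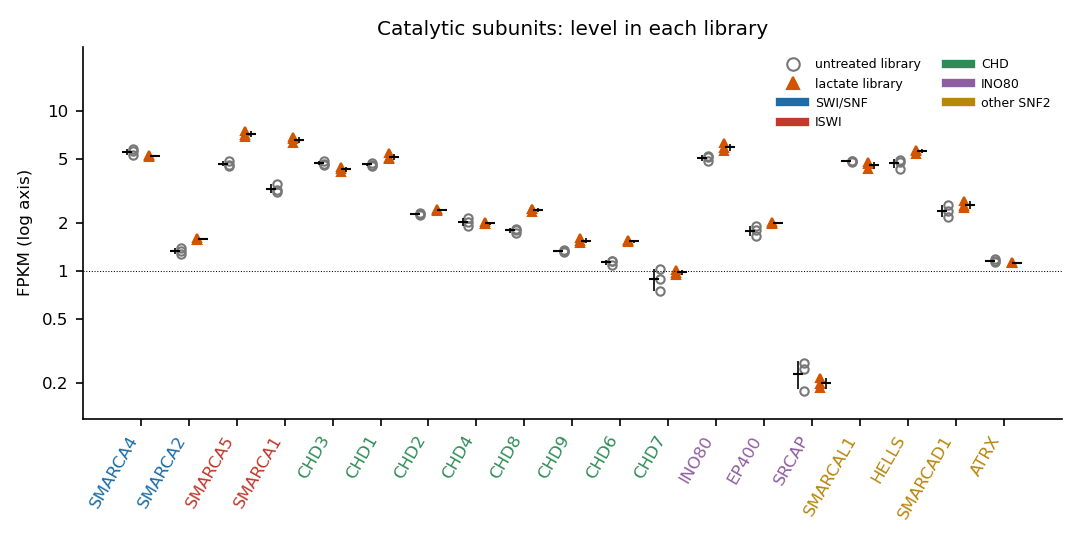
Levels of the 19 catalytic subunits in each library, in FPKM on a log axis (open circles untreated, filled triangles lactate; black marks are the mean and SD of 3 libraries; the dotted line is the 1 FPKM used in the filter). SMARCA5 and SMARCA1 have the highest lactate means, 7.15 and 6.58 FPKM, while in untreated libraries SMARCA4 leads at 5.54 FPKM.

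The ISWI motors changed place among the 19 catalytic subunits. In untreated cells SMARCA4 had the highest mean, 5.54 ± 0.211 FPKM, followed by INO80 at 5.07 ± 0.202, SMARCAL1 at 4.86 ± 0.0409 and CHD3 at 4.72 ± 0.150 FPKM. HELLS at 4.69 ± 0.299, SMARCA5 at 4.68 ± 0.165 and CHD1 at 4.63 ± 0.0947 FPKM came next. SMARCA4 did not overlap INO80, and from INO80 down to CHD1 the libraries of each gene overlapped those of its neighbour in the order. SMARCA1 stood below them at 3.26 FPKM. With lactate SMARCA5 was highest at 7.15 ± 0.309 FPKM, with its lowest library (6.86) just above the highest of SMARCA1 (6.84). SMARCA1 came next at 6.58 ± 0.300 FPKM, and its lowest library (6.25) was just under the highest of INO80 (6.26). FPKM divides by the length of all annotated exons, so the order between genes depends on the gene models. The places of CHD4 and SRCAP in it are uncertain. Another gene model on the same strand shares 46.9% of the CHD4 exonic bases, and another shares 74.1% of those of SRCAP.

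In the CHD family 4 of 7 tested genes rose, 1 fell and 2 did not pass, with a median log2 fold change of 0.12. Of all genes tested, 27.7% rose and 30.9% fell. The CHD count that rose was 2 without untreated replicate 2, untreated replicate 3 or lactate replicate 1. It was also 2 with the trend removed, and the genes were CHD6 and CHD8 in each case. In these fits the CHD share that rose was 28.6%. Of all genes, 24.5% to 25.3% rose with those libraries left out, and 23.3% with the trend removed. The family is set out here by its subgroups.

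CHD8, a repressor of beta-catenin targets and an autism gene, had levels of 1.84, 1.73 and 1.80 FPKM untreated and 2.45, 2.33 and 2.43 FPKM with lactate. All lactate libraries were higher, and the log2 fold change was 0.29 (SE 0.039, limma adjusted p = 0.000650), or 0.27 with the trend removed. CHD6, of the same subfamily, was at 1.09, 1.16 and 1.16 FPKM untreated and at 1.51, 1.53 and 1.57 FPKM with lactate. Here too the groups were apart, with a log2 fold change of 0.24 (SE 0.044, limma adjusted p = 0.00248). CHD9 was at 1.35, 1.31 and 1.34 FPKM untreated and at 1.5, 1.61 and 1.53 FPKM with lactate. Its log2 fold change of 0.12 (limma adjusted p = 0.0409) failed when any 1 library was left out, and was -0.086 with the trend removed. CHD7, the gene mutated in CHARGE syndrome, was at 0.897, 1.03 and 0.752 FPKM untreated and at 1.02, 0.975 and 0.950 FPKM with lactate. It reached 1 FPKM in 2 libraries, just outside the filter, and the groups overlapped.

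CHD1, which binds methylated histone H3 at active genes, was at 4.73, 4.55 and 4.59 FPKM untreated and at 5.42, 5.04 and 5.02 FPKM with lactate. The groups were apart and the log2 fold change was 0.13 (limma adjusted p = 0.0185). The call was lost without untreated replicate 2, untreated replicate 3 or lactate replicate 1, and the value was -0.064 with the trend removed. CHD2, its close relative, was at 2.29, 2.24 and 2.28 FPKM untreated and at 2.44, 2.41 and 2.38 FPKM with lactate. The lactate libraries were slightly higher, but the gene did not pass (log2 fold change 0.060, limma adjusted p = 0.173). A gene model on the same strand, AC013394.1, shares 10.2% of the CHD2 exonic bases.

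CHD3 and CHD4 are the alternative motors of NuRD. CHD3 was at 4.67, 4.60 and 4.89 FPKM untreated and at 4.13, 4.34 and 4.44 FPKM with lactate. It fell by a small margin (log2 fold change -0.11, limma adjusted p = 0.0387). The call was lost without untreated replicate 1, untreated replicate 3, lactate replicate 1 or lactate replicate 2, and with the trend removed. CHD4 was at 2.01, 2.15 and 1.91 FPKM untreated and at 2.03, 1.96 and 1.97 FPKM with lactate. The groups overlapped (limma adjusted p = 0.737), and 46.9% of the CHD4 exonic bases are shared with an overlapping gene model on the same strand, so its level is uncertain.

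In the INO80 family 1 of the 2 tested genes rose, while 27.7% of all genes tested rose. INO80, the motor of its own complex, was at 5.14, 4.84 and 5.23 FPKM untreated and at 5.84, 6.26 and 5.62 FPKM with lactate. All lactate libraries were higher, with a log2 fold change of 0.19 (SE 0.045, limma adjusted p = 0.00900) and 0.23 with the trend removed. EP400, the motor of the TIP60 complex, was at 1.92, 1.65 and 1.79 FPKM untreated and at 1.97, 2.03 and 2.0 FPKM with lactate. It did not pass (log2 fold change 0.11, limma adjusted p = 0.0907), and passed with the trend removed at 0.13, with read totals at 0.15, with voom on recovered reads at 0.23 and without untreated replicate 1 at 0.14. SRCAP, which deposits H2A.Z, was at 0.244, 0.265 and 0.178 FPKM untreated and at 0.215, 0.196 and 0.186 FPKM with lactate. These values were under the filter and overlapped, and 74.1% of the SRCAP exonic bases are shared with another gene model on the same strand.

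Among the other SNF2-like ATPases 1 of 4 rose. HELLS, or LSH, which aids DNA methylation, was at 4.81, 4.35 and 4.91 FPKM untreated and at 5.72, 5.41 and 5.63 FPKM with lactate. The groups were apart (log2 fold change 0.21, limma adjusted p = 0.00523), but the value was 0.019 with the trend removed. ATRX, which loads histone H3.3 with DAXX, was at 1.15, 1.18 and 1.14 FPKM untreated and at 1.13, 1.14 and 1.12 FPKM with lactate. It did not pass on the deposited values (log2 fold change -0.016, limma adjusted p = 0.774), and it fell with the trend removed (-0.23, limma adjusted p = 0.00129). ATRX has the greatest length of the tested members, 22740 nt, and a transcript GC content of 36.8%.

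The remaining ATPases act on stalled forks and ends of DNA. SMARCAL1, which remodels stalled replication forks, was at 4.81, 4.89 and 4.88 FPKM untreated and at 4.33, 4.65 and 4.76 FPKM with lactate. It was lower in each lactate library but did not pass (log2 fold change -0.071, limma adjusted p = 0.143). SMARCAD1, which acts at DNA ends and behind replication forks, was at 2.59, 2.36 and 2.18 FPKM untreated and at 2.75, 2.55 and 2.47 FPKM with lactate. Its groups overlapped (log2 fold change 0.088, limma adjusted p = 0.207).

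The 7 genes under the filter were ARID1B, SMARCD3, SMARCE1, BAZ2B, CECR2, CHD7 and SRCAP. SMARCD3, or BAF60c, a paralog known from heart and muscle, was at 0.410, 0.582 and 0.574 FPKM untreated and at 0.906, 0.933 and 0.935 FPKM with lactate. The groups did not overlap, the ratio of the means was 1.77, and 57 to 185 recovered reads lay behind each value. Tested with no filter on low values, SMARCD3 passed (log2 fold change 0.34, limma adjusted p = 0.0125), in a fit where 9.26% of all genes rose, and the other 6 did not. ARID1B, the alternative to ARID1A, stood at 0.634 ± 0.0386 and 0.653 ± 0.0216 FPKM. BAZ2B, a paralog of BAZ2A, stood at 0.474 ± 0.0420 and 0.554 ± 0.0302 FPKM. SMARCE1, or BAF57, stood at 0.190 ± 0.00416 and 0.196 ± 0.0101 FPKM, divided by a length of 18470 nt of which GENCODE 29 assigns 19.8% also to a gene on the same strand. CECR2, a partner of the ISWI motors in testis and neural tissue, had 0 to 8 recovered reads per library.

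Levels of paralogs can be weighed against each other within each library. SMARCA1 made up 39.6%, 40.1% and 43.5% of the summed ISWI motor FPKM in untreated and 47.8%, 46.8% and 49.2% in lactate libraries, a difference of 6.85 percentage points. SMARCA2 made up 19.4% ± 0.656 of the SWI/SNF motors untreated and 23.2% ± 0.402 with lactate, and SMARCC2 made up 42.3% ± 0.907 and 39.6% ± 1.54 of the SMARCC pair. For these 3 shares the groups did not overlap. No share was computed with the GC and length trend removed. In each case the exact two-sided permutation test gave p = 0.1, the smallest that 3 against 3 allows, and 0.2 after adjustment over 6 shares. SMARCA1 was chosen with its change known, so its share is a description. The shares of ARID1B (difference 0.204 points, exact p = 0.600), SMARCD1 (0.868 points, exact p = 0.400) and CHD3 (-1.55 points, exact p = 0.400) overlapped between groups. With 1 library left out these differences ranged from 0.0306 (without untreated replicate 3) to 0.540 points (without untreated replicate 2) for ARID1B. They ranged from 0.233 (without lactate replicate 3) to 1.38 points (without lactate replicate 2) for SMARCD1, and from -2.47 (without untreated replicate 2) to -0.593 points (without untreated replicate 3) for CHD3. The CHD3 share also rests on the uncertain CHD4 level, since 46.9% of the CHD4 exonic bases lie in another gene model on the same strand. Summed over its paralogs, SMARCD transcript went from 46.5 ± 0.0644 to 41.4 ± 0.450 FPKM (ratio 0.889) and SMARCC transcript from 12.4 ± 0.382 to 13.9 ± 0.411 FPKM (ratio 1.13).

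**Figure D3:**
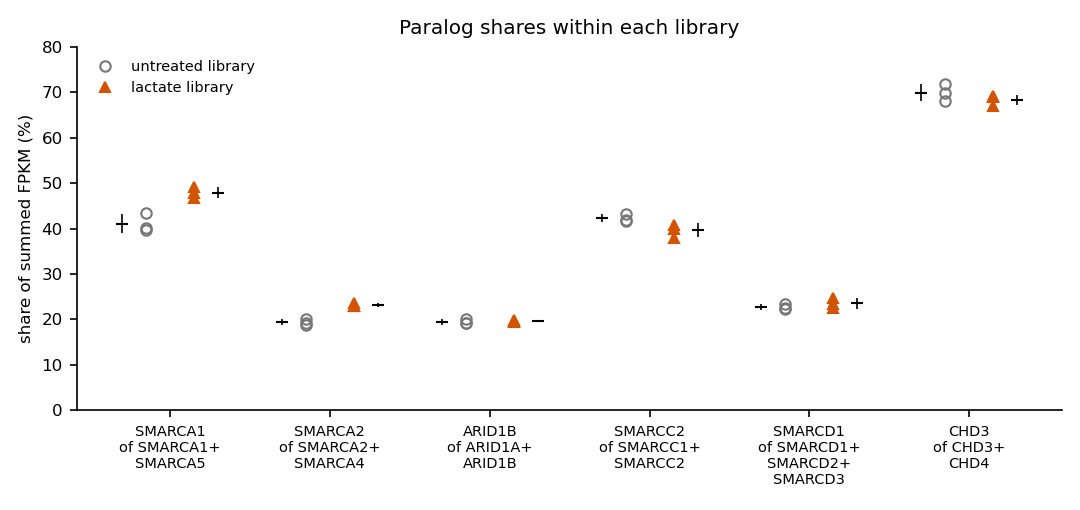
Share of 1 paralog in the summed FPKM of its paralog set, in percent, for each library (open circles untreated, filled triangles lactate; black marks are the mean and SD of 3 libraries). The SMARCA1 share lies at 46.8% or more in all lactate libraries and at 43.5% or less in all untreated libraries.

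Most of the remodeller genes that rose had transcripts of low GC content. Of the 20 tested genes below the median transcript GC of all tested genes, 48.1%, 14 rose and none fell, with a median log2 fold change of 0.16. Of the 18 at or over it, 2 rose and 8 fell, with a median of -0.071. The same tilt ran through the transcriptome: of 5794 tested genes below the median 2652 rose and 931 fell, and of 5794 at or over it 602 rose and 2649 fell. Across the 38 genes, which come from the same libraries, Spearman's rho between log2 fold change and GC content was -0.64, and across all tested genes it was -0.45. The median GC was 41.0% in the tested ISWI genes, 47.2% in the CHD genes and 53.5% in the SWI/SNF genes, whose median log2 fold changes were 0.22, 0.12 and -0.037. The remaining groups did not follow this order. The 2 tested INO80 genes had a median GC of 52.6% and a median log2 fold change of 0.15. The 4 other SNF2-like ATPases had the lowest median GC, 37.2%, and a median log2 fold change of 0.036. Remodeller genes were also long, with a median of 9602 nt against 4596 nt for all tested genes. The part of GC and length in each result was not tested beyond the fit with their trend removed.

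**Figure D4:**
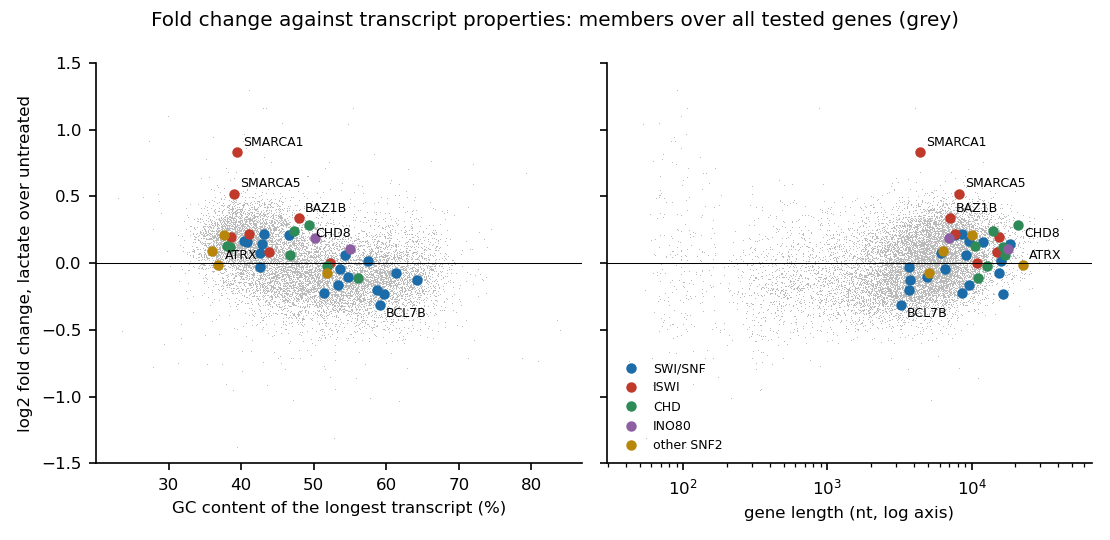
Log2 fold change of lactate over untreated against the GC content of the longest transcript in percent (left) and gene length in nt on a log axis (right). Grey dots are all tested genes and coloured dots are the tested remodeller genes by family; SMARCA1, at 39.5% GC, is the highest of the coloured dots.

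**Figure D5:**
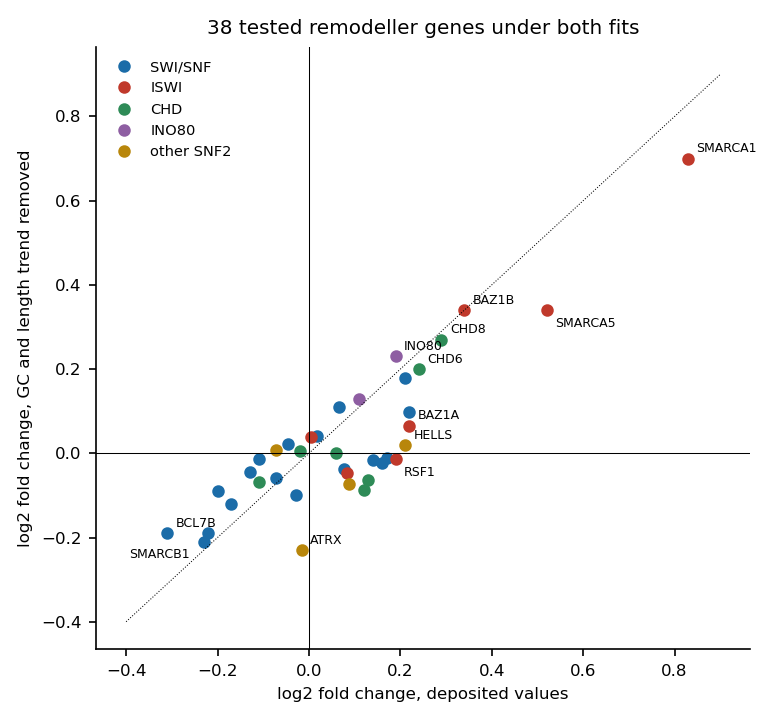
Log2 fold change of the 38 tested remodeller genes on the deposited values (horizontal) and with the GC and length trend removed (vertical), with a dotted line where both are equal. BAZ1B keeps 0.34 in both, SMARCA1 moves from 0.83 to 0.70, and RSF1 and HELLS move to near 0.

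Subunits outside the 45 genes moved in both directions. For comparison, 27.7% of all genes tested rose and 30.9% fell. Of 7 other tested SNF2-like ATPases 5 rose and none fell (median log2 fold change 0.31). These included HLTF, a fork-remodelling ubiquitin ligase (3.31 ± 0.204 to 5.42 ± 0.0963 FPKM, 0.58), BTAF1, which removes TBP from DNA (0.44), and ERCC6L, a mitotic translocase (0.35). With the trend removed 3 of these 7 rose (42.9%, against 23.3% of all genes), at 0.41, 0.29 and 0.24 for these 3 genes. Of the 3 tested ISWI partners outside the 45, the small histone-fold subunits of CHRAC fell: POLE3 from 109 ± 3.37 to 79.9 ± 1.95 FPKM (-0.44, limma adjusted p = 3.03e-05) and CHRAC1 from 15.8 ± 0.443 to 12.9 ± 0.170 FPKM (-0.28, limma adjusted p = 0.000185). HMGXB4, a NURF-associated protein, rose (0.16) and did not pass with the trend removed. POLE3 is also a subunit of DNA polymerase epsilon.

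Of 26 tested subunits of the INO80, SRCAP and TIP60 complexes 4 rose and 13 fell, with a median log2 fold change of -0.099. The ATPase RUVBL1, shared by these complexes, fell from 38 ± 0.552 to 30.4 ± 0.769 FPKM (-0.32). MCRS1 and ZNHIT1 fell too (-0.25 and -0.24), while ACTR6 (0.27), UCHL5 (0.12) and MORF4L2 (0.087) rose. With the trend removed 2 rose and 14 fell (7.69% and 53.8%, against 23.3% and 26.1% of all genes). UCHL5 (-0.042) and MORF4L2 (0.026) did not pass in that fit. Of 12 tested NuRD partners of CHD3 and CHD4, 3 rose and 5 fell. The deacetylases split: HDAC1 fell from 78.1 ± 1.72 to 65.0 ± 1.23 FPKM (-0.26) and HDAC2 rose from 8.10 ± 0.0286 to 10.2 ± 0.257 FPKM (0.30). The MTA scaffolds split as well, with MTA2 at -0.30 and MTA3 at 0.25, and MBD3 fell (-0.42). RBBP4, a histone-binding subunit, rose on the deposited values (0.12) but was at -0.041 and did not pass with the trend removed.

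Of 16 histone chaperones, which hand histones to and from remodelled DNA, 3 rose and 7 fell. The shares were 18.8% and 43.8%, and those of all genes tested were 27.7% and 30.9%. The subunits of the FACT complex moved apart, SUPT16H from 20.7 ± 0.259 to 26.6 ± 0.149 FPKM (0.35) and SSRP1 from 66.5 ± 1.34 to 52.8 ± 1.09 FPKM (-0.33), and both kept their calls with the trend removed. NAP1L1 (0.18) and ANP32E (0.12) also rose but not with the trend removed. DAXX, the partner of ATRX, fell (-0.34), as did NPM1 (-0.19). Of 5 other tested SWI/SNF subunits 1 rose, PHF10 of PBAF (0.16, limma adjusted p = 0.0402), and none fell. With the trend removed PHF10 was at -0.0043 and did not pass (limma adjusted p = 0.955).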

How the data were processed

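Poly-A RNA of CAL27 cells was sequenced for 6 libraries, 3 untreated and 3 given lactate, and grouped by the treatment in the labels. The authors deposited FPKM for 31368 genes. The submitters' processing notes name hg38 as the build and list featureCounts 1.5.0-p3, HISAT2 2.0.5, fastp and StringTie 1.3.3b. What each tool did, the annotation and strand use: not given in the sources used here. Whole reads were recovered from the FPKM steps (31366 genes within 0.003 reads), 25690461 to 39142793 per library. Lengths implied by the values were those of GENCODE 29 for 10 of the 45 genes.

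Genes at 1 FPKM or more in 3 or more libraries were tested with limma 3.58.1 (R 4.3.3; trended, robust variance) on log2(FPKM + 1), which understates changes of low genes, with Benjamini-Hochberg adjustment over 11792 genes. Fold changes are lactate over untreated, and ± is the SD. The script was tested on simulated data. The trend fit removed natural splines (4 degrees of freedom) of GC and log length from each library, over 11588 genes. Paralog shares used exact permutation tests. Alternatives were quantile normalization, median centring, read totals, voom on recovered reads, no variance trend, no filter, a pseudocount of 0.1, the replicate block and leaving out each library.

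The members and lists were chosen with earlier results of these data known. Every ATPase, and each member past the threshold with an absolute log2 fold change of at least 0.25, is given in every library. From other lists, the text names, for each direction, up to 3 called genes by smallest p.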

Additional observations from a re-analysis of the deposited data

How the results depend on the processing

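Across the alternatives, calls over all genes stayed within 1.5 times of the 6914 of the main test, and ranged from 6027 to 6473 with 1 library left out. Remodeller genes that rose numbered 16, with 11 to 15 when 1 library was left out and 13 with the replicate block. They numbered 9 with the GC and length trend removed, 20 with read totals and 24 with voom on recovered reads. Of all genes, 27.7% rose in the main test, 23.8% to 25.7% with 1 library left out and 27.6% with the block. The share was 23.3% with the trend removed, 35.6% with read totals and 38.3% with voom. Remodeller genes that fell numbered 8, with 6 to 8 when 1 library was left out and 8 with the replicate block. They numbered 5 both with read totals and with voom on recovered reads. Of all genes, 30.9% fell in the main test, 21.5% with read totals and 23.2% with voom. Among genes called in the main test, the sign turned with the trend removed for SMARCA2 (-0.016), ARID2 (-0.024), PBRM1 (-0.011), RSF1 (-0.014), CHD1 (-0.064) and CHD9 (-0.086). None of these passed in that fit. The sign also turned for SS18, BPTF, SMARCAD1, CHD2, SMARCAL1, BCL7A and CHD4, which passed in neither fit. With quantile normalization it turned for ACTL6A (0.094), which passed in that fit, and for ARID1A (-0.019) and BAZ2A (-0.0040), which did not. Libraries with the same replicate number correlated at 0.05, 0.07 and -0.00 after group means were removed, and those with different numbers at -0.07 to 0.02. Such small values cannot tell whether the numbers pair the samples. As a block the replicate numbers ended the calls of SMARCA2, ARID2 and CHD9. With no filter, 7 calls ended (SMARCA2, ARID2, PBRM1, SMARCD1, CHD1, CHD3, CHD9). The 6 paralog shares kept their direction with each library left out and with recovered reads, in a design that cannot pass 0.05. The replicate block leaves their mean differences unchanged by construction. The shares were not run with the GC and length trend removed. In that fit SMARCA2 was at -0.016 and SMARCA4 at -0.058, against 0.14 and -0.071 on the deposited values. SMARCC2, SS18, CHD2 and EP400 passed as higher with read totals, and these and ARID1A, BPTF, BAZ2A and SMARCAD1 with voom; SMARCD1, BCL7C and CHD3 lost their calls in both. CECR2 had at most 8 reads per library.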
